A study of Mus musculus with 4 samples.

Results

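The PI3K, Akt and mTOR pathway was examined through 33 of the 38924 genes in a count table from mouse regulatory T cells (Treg). The members were chosen by name: every gene identifier that maps to one of 33 symbols was taken, and all 33 were present. They comprise 8 subunits of phosphoinositide 3-kinase (PI3K), 3 phosphatases and 5 kinases of the PDK1, Akt and Sgk families. The rest are 7 parts of the mTOR complexes, 3 genes of the TSC and Rheb switch, 5 downstream kinases and 2 genes listed as brakes.

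The libraries came from 2 groups of Treg sorted from mouse spleen, activated Treg and resting Treg, with 2 libraries in each, made from independent animals. The labels print one and the same gate, CD4+Foxp3+CD62LhiCD44lo, for both groups. Strain, genotype, age and any stimulation in culture are not given in the labels, so whether the groups share an allele is not known here. The title of the series concerns the transcription factor Foxo1, and its design text asks how the 2 populations differ.

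As background, PI3K makes the lipid PIP3 at the membrane when antigen or cytokine receptors are engaged, and PIP3 recruits PDK1 and Akt. Akt phosphorylates Foxo1, which then leaves the nucleus, and it relieves the TSC block on Rheb, the switch that turns on mTOR complex 1 (mTORC1). In Treg the strength of this pathway is known to bear on their identity and function, with phosphatases and TSC holding it back. The pathway is run mainly by phosphorylation and lipid turnover, which RNA levels do not measure.

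Library totals were 29332058 and 20282062 counts in activated Treg, against 20699024 and 31851982 in resting Treg. The columns of the count table carry only the group, so the libraries are called activated A and B and resting A and B. The letters are names, and no fit on the counts used them to pair libraries. T cell markers (Cd3d, Cd3e, Cd3g, Cd4, Lck, Foxp3, Il2ra) summed to 6638 and 8956 CPM (counts scaled by library size) in activated A and B and to 6826 and 8024 CPM in resting A and B. Summed macrophage markers differed within each group: the activated libraries had 482 and 46.4 CPM and the resting libraries 519 and 14.0 CPM. Erythroid markers were split the same way, at 14.6 and 1.92 CPM in activated Treg and 26.0 and 0.947 CPM in resting Treg. Plasmacytoid dendritic cell markers were higher in activated Treg, at 1166 and 407 CPM, against 140 and 149 CPM in resting Treg, and 9 of the 10 had groups that did not overlap. Conventional dendritic cell markers summed to 180 and 50.5 CPM in activated Treg and to 11.7 and 7.93 CPM in resting Treg, with 7 of 7 not overlapping. B cell sums were 69.7 and 93.0 CPM in activated Treg, against 48.6 and 65.1 CPM in resting Treg. CD8 T cell sums were 81.8 and 35.8 CPM in activated Treg, against 30.4 and 27.3 CPM in resting Treg, and NK cell sums were 13.7 and 19.3 CPM in activated Treg, against 4.57 and 7.38 CPM in resting Treg. The NK sum was mostly Klrb1c, while Eomes ran the other way, with 0.883 and 0.592 CPM in activated Treg, against 2.14 and 2.45 CPM in resting Treg, and Gzma overlapped. Neutrophil markers summed to at most 4.15 CPM in any library. Markers with 0 counts in at least 1 library included Klk1, Clec9a, Clec10a and Ncr1, as well as all 4 of the neutrophil list.

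Most differences between activated and resting Treg in this pathway were small: the median size of a fold change, regardless of sign, was 0.21 on the log2 scale, beside 0.24 over all genes tested. Of the 33 members, 32 had enough counts to be tested. In edgeR's quasi-likelihood test with Benjamini-Hochberg adjustment over all 14235 genes tested, 0 members passed a threshold of 0.05. The background was also 0 genes (0.0%) in either direction, and the smallest adjusted p of any gene was 0.267. At an unadjusted edgeR p under 0.05 the count was 0 members higher (background 6.3%) and 1 member lower (background 2.61%). DESeq2, run as an alternative, called 0 members higher (background 2.32%) and 1 member lower (background 0.845%). The single member in both lower counts was Trib2.

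The 32 fold changes, given throughout as activated over resting on the log2 scale, lay on both sides of 0, with 15 above and 17 below. Their median was -0.03, beside -0.01 over all genes tested. The ranges of the groups did not overlap for 3 members that were higher in activated Treg (background 19.8% of all genes) and for 8 that were lower (background 17.4%). Those 11 members are 34.4% of the members, against a background of 37.2% of all genes. The intervals were narrow enough to be informative for many members: for 21 of 32 (65.6%) the 95% interval of the fold change lay within 2-fold in either direction, which held for 44.2% of all genes tested.

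**Figure D1:**
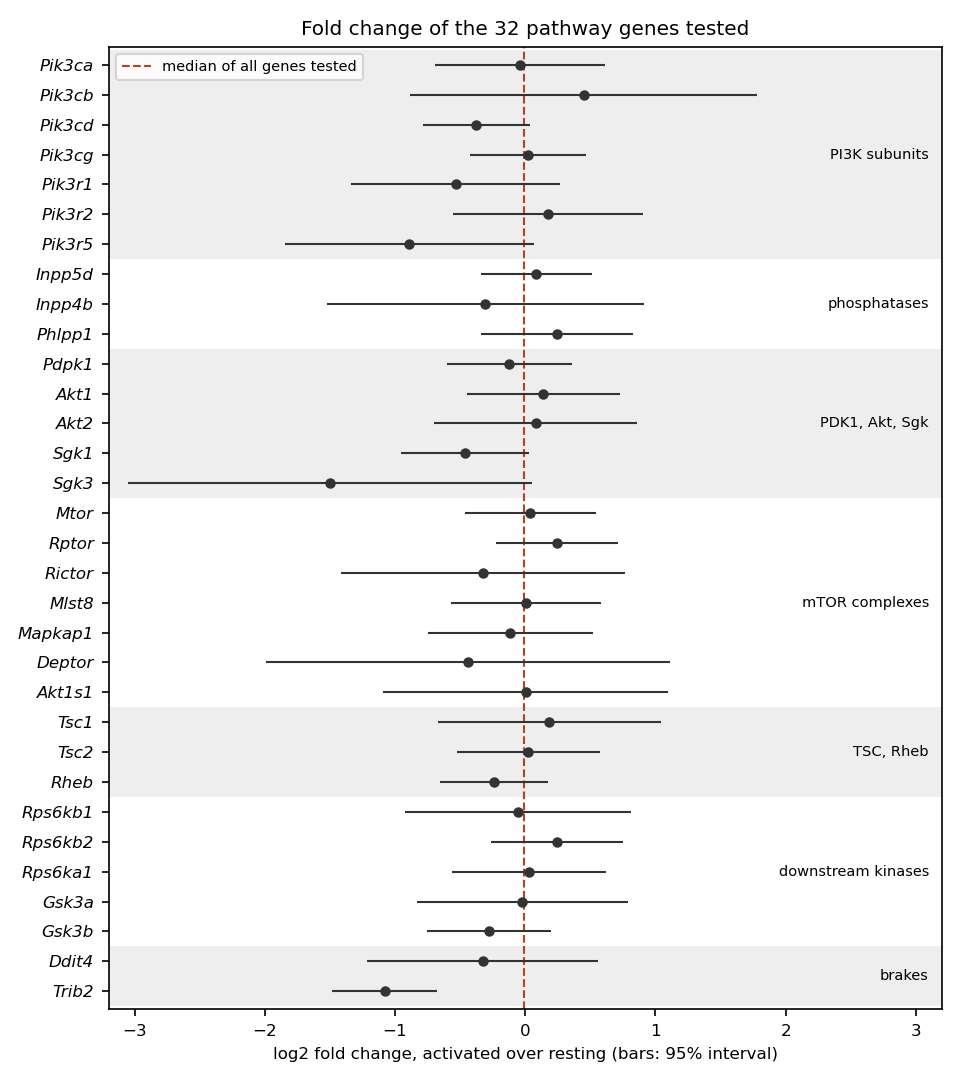
Log2 fold change (activated over resting) of each tested member, with its 95% interval, grouped by role; the dashed line is the median of all genes. Trib2, at -1.08, is the only member whose interval lies wholly on one side of 0.

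Trib2 encodes a Tribbles pseudokinase, a scaffold that binds Akt and ubiquitin ligases. It is listed here under brakes, which is a list name, and whether it restrains the pathway was not tested. Its fold change therefore gives no direction for pathway activity. It spans chr12:15791727-15816922 on the minus strand of mm10. It had 201 CPM in activated A and 200 CPM in activated B, against 426 CPM in resting A and 424 CPM in resting B. The libraries of each group lay together and the groups were far apart, with the mean activated level 0.473 times the mean resting level. Its log2 fold change was -1.08 ± 0.16 (SE), with a 95% interval of -1.48 to -0.68. Its unadjusted p ranked 40th among all genes in edgeR, where its adjusted p was 0.267, and DESeq2 gave an adjusted p of 3.7e-06. Macrophage marker sums differed between libraries A and B of both groups. Dendritic cell marker sums moved with the groups, in the opposite direction to Trib2. The part of either in the Trib2 difference was not tested. These are bulk libraries, in which fewer cells expressing a gene and less RNA per cell cannot be told apart.

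Trib2 made up most of its family per length of exon. Its share of summed Trib1, Trib2 and Trib3 CPM per kilobase was 84.6% ± 1.33 in activated Treg and 93.8% ± 0.539 in resting Treg (SD, n = 2 each). Trib1, a related pseudokinase that guides degradation of C/EBP factors, took 12.1% ± 1.46 in activated Treg and 3.0% ± 0.892 in resting Treg. In CPM, Trib1 had 37.5 and 45.3 in activated A and B, against 15.6 and 23.5 in resting A and B. Its groups did not overlap, in the opposite direction to Trib2, with a log2 fold change of 1.08 ± 0.28 (SE), an edgeR adjusted p of 0.363 and a DESeq2 adjusted p of 0.046. Trib3 had 3.99 and 3.85 CPM in activated Treg, against 9.38 and 4.80 CPM in resting Treg, and passed neither test.

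**Figure D2:**
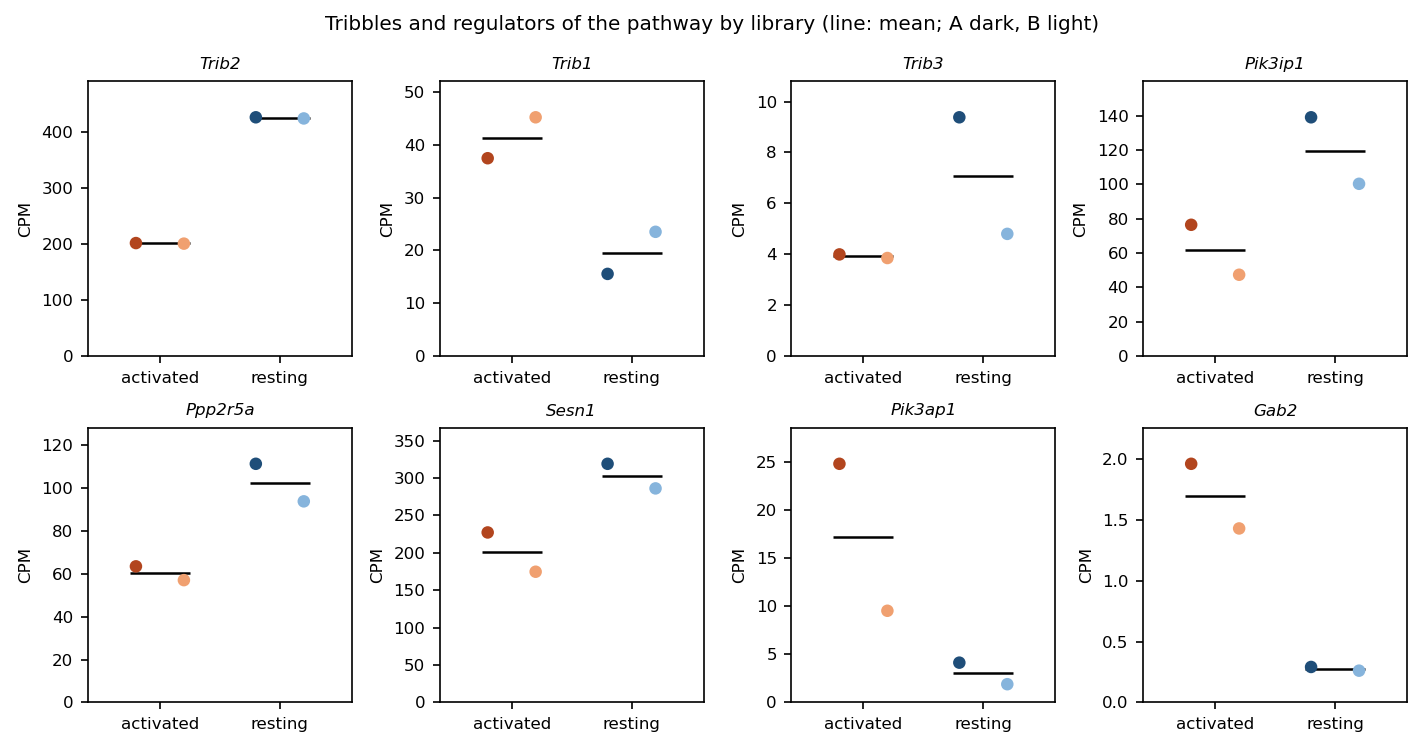
CPM in each library for Trib2, its relatives Trib1 and Trib3, and 5 regulators outside the member list, with activated libraries left and resting libraries right; the line is the group mean. The Trib2 libraries of each group coincide, at 201 and 200 CPM in activated Treg and 426 and 424 CPM in resting Treg, while Trib1 runs the other way.

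Because Akt acts on Foxo1 and the series is about that factor, the promoters of the members were searched for a forkhead core motif, TGTTTAC or its reverse complement GTAAACA. RefSeq promoter windows (GRCm38.p6, from 250 bases before to 50 after a start) were found for 29 of the 33 members, in 46 windows. The motif occurred in 4 of the 46 windows, belonging to Akt1, Mapkap1 and Pik3cg, and in 3.65% of all 32851 windows. A GC box, GGGCGG or CCGCCC, occurred in 24 of the 46 and in 35.7% of all windows. The promoter of Trib2 (chr12:15816736-15817035, minus strand) is shown because Trib2 is the member with the smallest p, and the other 3 because they hold the forkhead letters: Akt1 (chr12:112674835-112675134, minus strand), Pik3cg (chr12:32208421-32208720, minus strand) and Mapkap1 (chr2:34406521-34406820, plus strand). Each reads 5′ to 3′, with the forkhead motif and GC boxes in capitals.
Trib2: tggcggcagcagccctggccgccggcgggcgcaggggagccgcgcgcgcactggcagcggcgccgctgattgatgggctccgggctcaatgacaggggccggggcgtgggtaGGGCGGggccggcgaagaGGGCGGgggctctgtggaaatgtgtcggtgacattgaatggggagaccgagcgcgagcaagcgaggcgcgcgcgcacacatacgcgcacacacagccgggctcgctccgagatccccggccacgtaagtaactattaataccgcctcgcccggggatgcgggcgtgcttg
Akt1: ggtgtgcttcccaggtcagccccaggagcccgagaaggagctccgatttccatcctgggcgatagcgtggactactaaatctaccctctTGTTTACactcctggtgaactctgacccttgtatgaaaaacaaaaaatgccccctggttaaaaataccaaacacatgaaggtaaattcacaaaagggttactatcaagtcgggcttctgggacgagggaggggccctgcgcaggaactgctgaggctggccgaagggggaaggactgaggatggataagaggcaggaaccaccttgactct
Pik3cg: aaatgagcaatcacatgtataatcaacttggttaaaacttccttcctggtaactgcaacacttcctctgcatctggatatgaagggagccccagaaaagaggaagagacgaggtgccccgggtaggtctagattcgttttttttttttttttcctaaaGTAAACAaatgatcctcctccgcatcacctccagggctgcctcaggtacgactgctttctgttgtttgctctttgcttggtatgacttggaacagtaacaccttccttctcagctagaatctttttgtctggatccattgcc
Mapkap1: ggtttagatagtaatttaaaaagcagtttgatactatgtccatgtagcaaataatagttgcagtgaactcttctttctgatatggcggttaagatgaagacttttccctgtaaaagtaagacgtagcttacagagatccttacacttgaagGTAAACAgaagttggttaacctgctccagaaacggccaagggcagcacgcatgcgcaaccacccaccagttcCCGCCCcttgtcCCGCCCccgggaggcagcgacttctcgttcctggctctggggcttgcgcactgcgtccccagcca
The Trib2 window holds 0 forkhead motifs and 2 GC boxes. The forkhead letters begin 161 bases before the start in Akt1, 92 in Pik3cg and 99 in Mapkap1, where 2 GC boxes stand closer to the start. The 3 genes with the forkhead letters had log2 fold changes of 0.14 ± 0.23 for Akt1, 0.02 ± 0.17 for Pik3cg and -0.12 ± 0.25 for Mapkap1 (SE), none past the test. A match is a run of letters in this window and says nothing on binding.

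Among the PI3K subunits the catalytic subunit p110δ, encoded by Pik3cd and the form most used by lymphocytes, was the most expressed per length, at 51.9 CPM per kilobase in activated Treg and 67.3 in resting Treg. In CPM it had 331 and 318 in activated A and B, against 436 and 407 in resting A and B. The activated values were both under the resting range. The log2 fold change was -0.37 ± 0.16 (SE), with a 95% interval of -0.78 to 0.03 and an adjusted edgeR p of 0.615. Its share of the 4 class I catalytic subunits, per length, was 75.6% ± 1.21 in activated Treg and 80.1% ± 0.904 in resting Treg (SD, n = 2 each). Pik3cg, whose product p110γ answers G protein-coupled receptors, took 15.8% ± 0.581 in activated Treg and 12.8% ± 1.93 in resting Treg. The widely expressed Pik3ca and Pik3cb made up the rest, with Pik3cb at 0.514% in activated Treg and 0.308% in resting Treg.

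Pik3cg itself had 92.1 and 91.1 CPM in activated A and B, against 82.8 and 97.4 CPM in resting A and B, so the activated values lay inside the resting range. Its adaptor subunits were measured at very different levels. Pik3r5, the p101 adaptor of p110γ, had 49.7 and 25.6 CPM in activated Treg, against 81.5 and 58.3 CPM in resting Treg. The groups did not overlap, but library A of activated Treg was above library B by 0.95 on the log2 scale. The log2 fold change was -0.89 ± 0.37 (SE) with an unadjusted edgeR p of 0.062 and an adjusted p of 0.607. Pik3r6, the alternative p84 adaptor, was near the detection limit, with 1 and 15 counts in activated Treg and 0 and 5 counts in resting Treg, and was not tested.

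The class IA regulatory subunits hold and stabilise the catalytic subunits. Pik3r1 (p85α) had 184 and 105 CPM in activated Treg, against 234 and 186 CPM in resting Treg, and the groups only just failed to overlap. Its log2 fold change was -0.53 ± 0.31 (SE) with an unadjusted edgeR p of 0.149. Per length it made up 78.0% ± 6.78 of Pik3r1, Pik3r2 and Pik3r3 in activated Treg and 86.2% ± 1.86 in resting Treg (SD, n = 2 each). Pik3ca (p110α) had 58.9 and 41.9 CPM in activated Treg, against 58.5 and 45.3 CPM in resting Treg, with library A higher in both groups. Pik3ca, Pik3cb and Pik3r2 had overlapping groups with log2 fold changes of -0.04, 0.45 and 0.17. Over the 7 subunits tested, 3 lay above 0 and 4 below, with a median of -0.04.

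**Figure D3:**
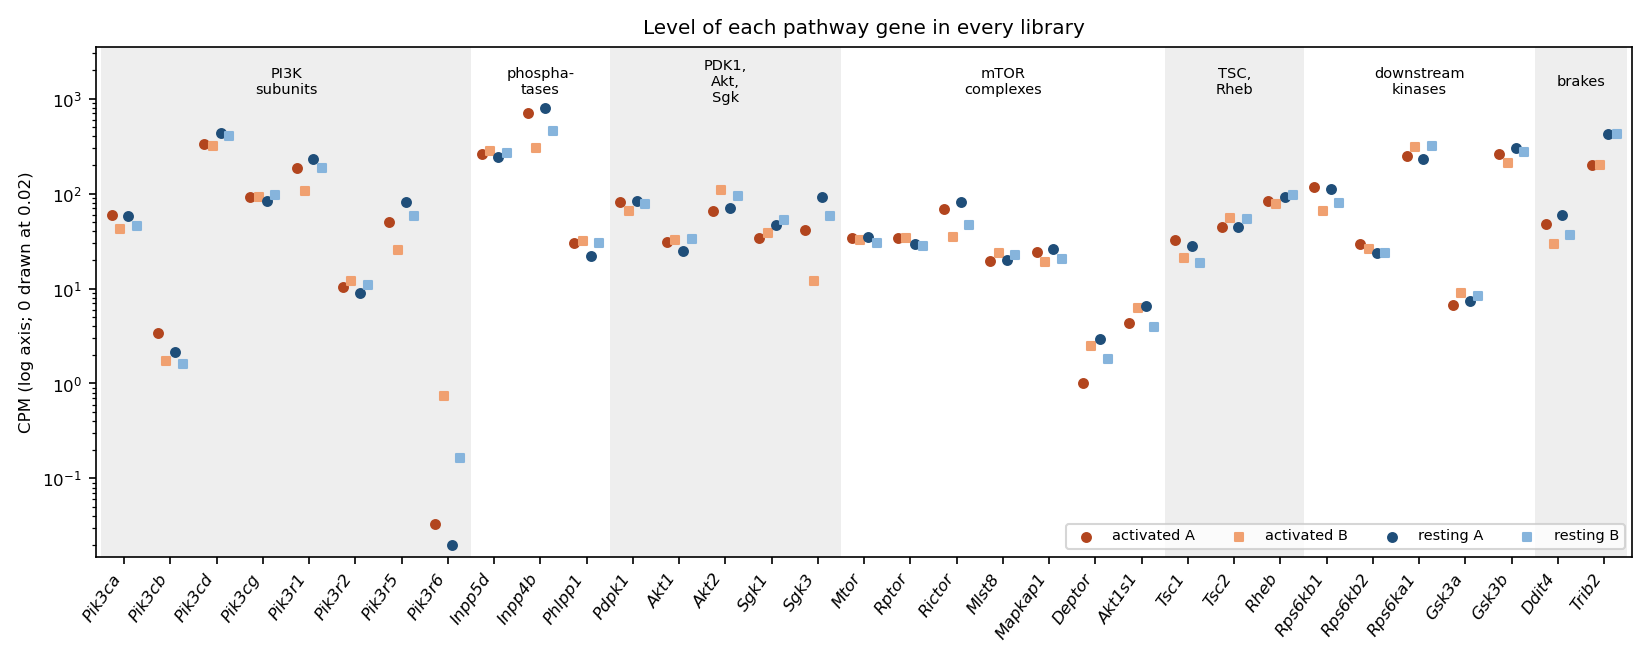
CPM of all 33 members in each library on a log axis, grouped by role, with the activated libraries left of the resting ones; a count of 0 is drawn at 0.02. Most members show all 4 libraries within a narrow band, while Trib2 splits by group and Sgk3, Inpp4b and Rictor spread between libraries of one group.

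The lipid phosphatases that oppose PI3K were abundant in both groups. Inpp4b, which removes the 4-phosphate from PI(3,4)P2, had 706 and 302 CPM in activated A and B, against 788 and 458 CPM in resting A and B. Library A was the higher one in both groups and the groups overlapped widely, with a log2 fold change of -0.31 ± 0.48 (SE). Inpp5d encodes SHIP1, which removes the 5-phosphate from PIP3, and had 260 and 283 CPM in activated Treg, against 244 and 268 CPM in resting Treg. Its interval, -0.34 to 0.51 on the log2 scale around 0.08, held both directions within 2-fold. Per length the pair were close, at 38.5 CPM per kilobase for Inpp4b and 35.7 for Inpp5d in activated Treg, and 47.7 and 33.6 in resting Treg. Phlpp1, a protein phosphatase that acts on the hydrophobic motif of Akt, had 30.3 and 31.5 CPM in activated Treg, against 22.3 and 29.9 CPM in resting Treg, and its log2 fold change was 0.24 ± 0.23 (SE).

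Among the kinases that PIP3 recruits, Akt2 was the most expressed per length, at 12.3 CPM per kilobase in activated Treg and 11.6 in resting Treg. Akt2 had 66.2 and 109 CPM in activated A and B, against 70.2 and 94.9 CPM in resting A and B. Here library B was the higher one in both groups, and the groups overlapped. Its share of summed Akt1 and Akt2, per length, was 60.4% ± 7.32 in activated Treg and 62.2% ± 0.0048 in resting Treg (SD, n = 2 each). The activated libraries had shares of 55.2% and 65.6%, on both sides of the resting value. In CPM, Akt1 had 30.9 and 32.8 in activated Treg, against 24.5 and 33.2 in resting Treg, with the activated values inside the resting range. Pdpk1, which encodes PDK1, the activator of Akt and Sgk kinases, had 81.5 and 65.9 CPM in activated Treg, against 82.5 and 78.1 CPM in resting Treg.

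The 2 Sgk kinases, relatives of Akt that mTORC2 switches on, both had lower values in activated Treg in every library. Sgk1 had 33.7 and 38.0 CPM in activated A and B, against 46.3 and 52.7 CPM in resting A and B. The groups did not overlap and the log2 fold change was -0.46 ± 0.19 (SE), with a 95% interval of -0.96 to 0.03 and an adjusted edgeR p of 0.597. Sgk3, which binds PI3P on endosomes, had 40.9 and 12.0 CPM in activated A and B, against 92.6 and 58.3 CPM in resting A and B. It had the lowest fold change among the members, -1.50 ± 0.61 on the log2 scale (SE), and an interval from -3.05 to 0.05. The activated libraries were 1.72 apart on the log2 scale, more than the fold change itself. Its unadjusted edgeR p was 0.055 and its adjusted p 0.580.

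No part of the mTOR complexes passed the test. Mtor, the shared kinase, had 34.3 and 32.3 CPM in activated Treg, against 35.0 and 29.8 CPM in resting Treg, a log2 fold change of 0.04 ± 0.20 (SE) with a 95% interval of -0.47 to 0.54. Mlst8, the other shared subunit, stood at 0.01, and Akt1s1, the mTORC1 inhibitor PRAS40, at 0.00, though at 3.92 to 6.56 CPM with a wide interval of -1.09 to 1.10. Rptor, the scaffold of mTORC1, had 34.3 and 33.7 CPM in activated Treg, against 29.3 and 28.1 CPM in resting Treg. Its libraries agreed closely within each group and the groups did not overlap, but the log2 fold change was only 0.25 ± 0.18 (SE), with an unadjusted edgeR p of 0.238.

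The mTORC2 parts behaved less evenly. Rictor, the scaffold of mTORC2, had 68.5 and 34.8 CPM in activated A and B, against 82.5 and 47.2 CPM in resting A and B. Library A was higher in both groups, by more than the difference between the groups. The share of Rictor in summed Rictor and Rptor, per length, was 53.3% ± 11.5 in activated Treg and 63.2% ± 8.45 in resting Treg (SD, n = 2 each). Mapkap1, which encodes the mTORC2 subunit Sin1, was the most expressed of the 7 per length, at 5.33 CPM per kilobase in activated Treg and 5.79 in resting Treg. In CPM it had 24.1 and 19.2 in activated Treg, against 26.3 and 20.7 in resting Treg. Deptor, an inhibitor of both complexes, was scarce, with 1.01 and 2.47 CPM in activated Treg, against 2.97 and 1.80 CPM in resting Treg. Over the 7 complex members the median log2 fold change was 0.00, and for 4 of them the interval lay within 2-fold.

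**Figure D4:**
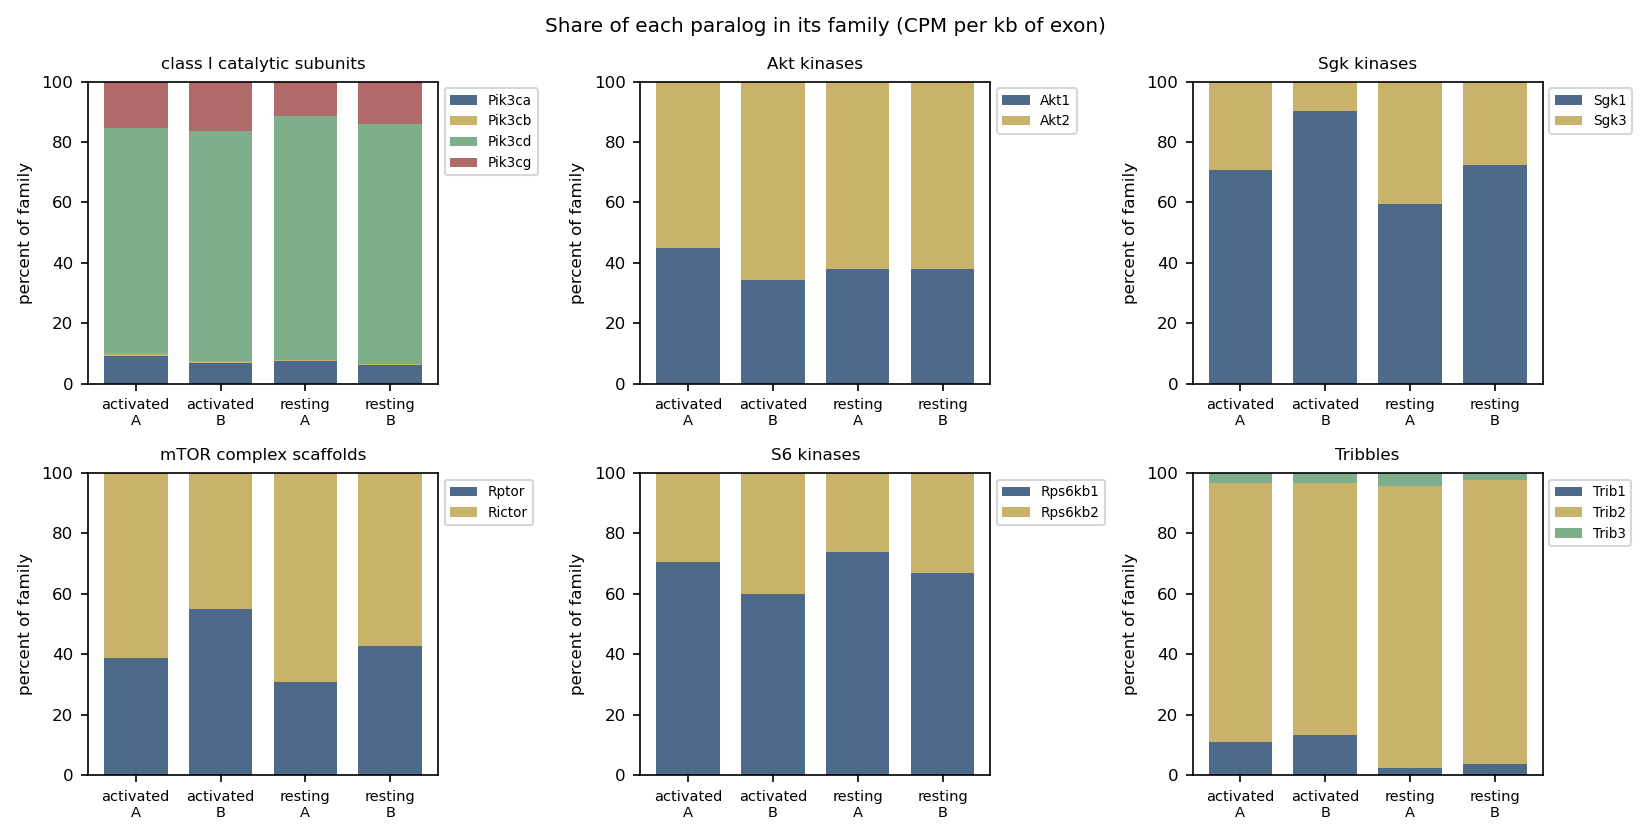
Share of each paralog in the summed CPM per kilobase of its family, one bar per library, activated bars left of resting bars. Pik3cd holds 74.8% to 80.8% of the class I catalytic subunits in every library, while the Rictor and Sgk3 shares spread within each group and overlap between groups.

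The TSC complex restrains Rheb. Tsc1 had 32.2 and 20.9 CPM in activated Treg, against 28.3 and 18.4 CPM in resting Treg, and Tsc2 had 44.8 and 56.0 CPM in activated Treg, against 44.7 and 54.3 CPM in resting Treg. Both overlapped between groups, with log2 fold changes of 0.18 ± 0.33 and 0.02 ± 0.22 (SE). Rheb, the GTPase that activates mTORC1 and the most expressed of the 3 per length, had 82.5 and 77.2 CPM in activated Treg, against 92.2 and 96.3 CPM in resting Treg. Its groups did not overlap, with a log2 fold change of -0.24 ± 0.16 (SE) and an unadjusted edgeR p of 0.20.

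Of the 5 kinases listed as downstream, Rps6ka1, which encodes the ribosomal S6 kinase RSK1, was the most expressed per length. Its level was 65.3 CPM per kilobase in activated Treg and 64.1 in resting Treg. It had 246 and 310 CPM in activated Treg, against 232 and 314 CPM in resting Treg, so both groups spanned the same range. Of the S6 kinases that mTORC1 activates, Rps6kb1 had a log2 fold change of -0.06 ± 0.34, and Rps6kb2 one of 0.25 ± 0.20 (SE). Rps6kb1 had 118 and 66.0 CPM in activated Treg, against 111 and 80.1 CPM in resting Treg, with library A higher in both groups. Rps6kb2 had 29.5 and 26.2 CPM in activated Treg, against 23.4 and 23.6 CPM in resting Treg, with no overlap. Its exons overlap Coro1b and Ptprcap on the opposite strand, which had 264 to 610 CPM on average in either group, and the strand setting of the counting is not given, so their reads cannot be told apart. Gsk3b, a kinase that Akt inhibits, had 262 and 212 CPM in activated Treg, against 299 and 276 CPM in resting Treg, also with no overlap; its log2 fold change was -0.28 ± 0.19 (SE). It made up 89.8% ± 3.17 of the Gsk3 pair per length in activated Treg and 91.4% ± 1.09 in resting Treg (SD, n = 2 each). Gsk3a, its relative, had 6.71 and 8.88 CPM in activated Treg, against 7.44 and 8.39 CPM in resting Treg, with the resting values inside the activated range. Opposite-strand exon overlap with detected genes also touches Akt1s1 (Tbc1d17), Rps6kb1 (Rnft1), Tsc2 (Pkd1), Gsk3a (9130221H12Rik), Rps6ka1 (Gm12977) and Rptor (Rptoros).

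The other gene listed under brakes, Ddit4 or REDD1, is a stress-induced protein that acts through TSC to lower mTORC1 activity. It had 47.3 and 29.8 CPM in activated A and B, against 60.0 and 37.0 CPM in resting A and B. Library A was again higher in both groups, and the groups overlapped, with a log2 fold change of -0.33 ± 0.35 (SE).

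The gap between the libraries of a group, taken in the group where it was wider, was larger than the size of the fold change for 26 of the 32 members. The same held for 9938 of the 14235 genes tested. The sign of this gap was shared by the groups: library A was higher than B in both groups for 17 members and lower in both for 10, which is 84.4% of the members on the same side against 74.8% of all 12222 genes compared in this way. The gap went with exon length: across members the Spearman correlation of the log2 ratio of A over B (0.5 CPM added to each) with length was 0.48 in activated Treg and 0.36 in resting Treg (n = 32 genes, from the same 4 libraries). In the 14 members over 8 kb of exon the median log2 ratio was 0.40 in activated Treg and 0.35 in resting Treg, and in the 18 shorter ones it was -0.07 in activated Treg and -0.10 in resting Treg. In activated Treg the highest log2 ratios were those of Sgk3, at 1.72 in activated Treg and 0.66 in resting Treg, Inpp4b, at 1.23 in activated Treg and 0.78 in resting Treg, and Rictor, at 0.97 in activated Treg and 0.80 in resting Treg. In resting Treg, Ddit4 (0.69) and Akt1s1 (0.68) also stood above Sgk3, and in activated Treg, Deptor (-0.97) had a ratio of the opposite sign. Trib2 stood at 0.01 in both groups. Among the same 12222 genes the medians, split into 5 equal bins of length, were -0.17 in the shortest bin and 0.28 in the longest in activated Treg, and -0.11 and 0.17 in resting Treg. Macrophage marker sums were also higher in library A of both groups, and the part of either in these gaps was not tested.

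**Figure D5:**
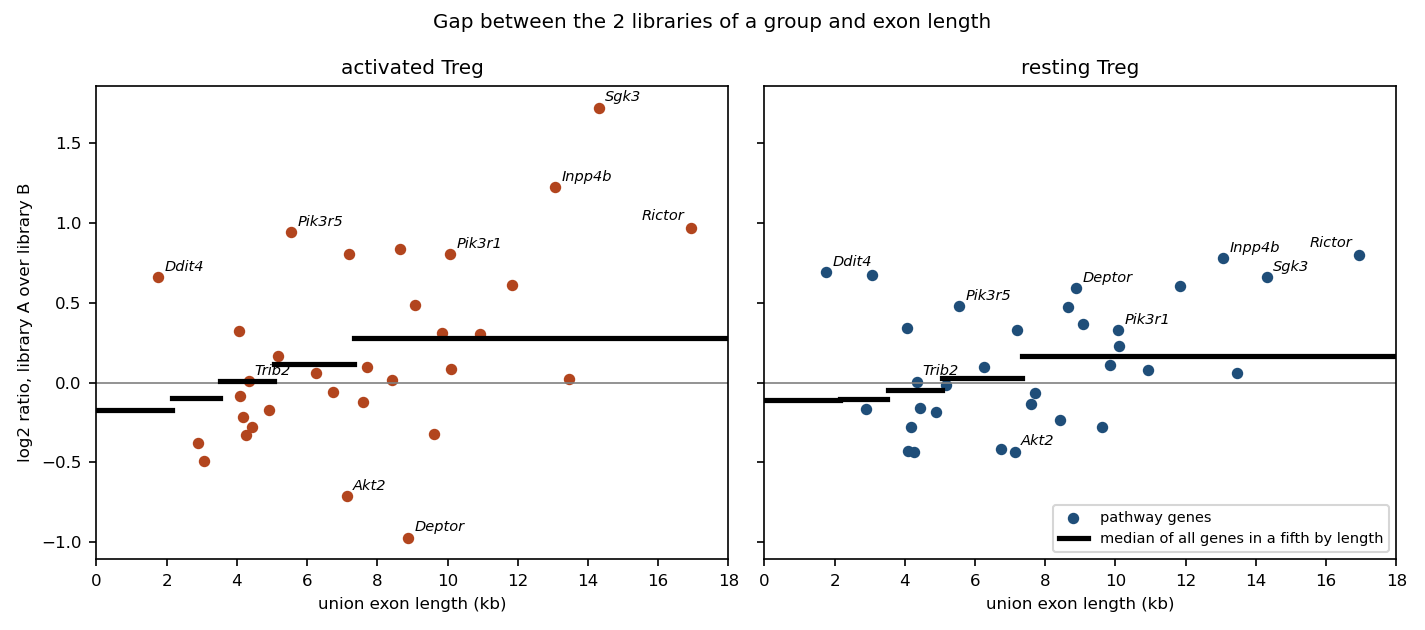
Log2 ratio of library A over library B within each group against union exon length in kilobases, with points for members and bars for the median of all genes in each of 5 bins of length. Sgk3, Inpp4b and Rictor, all long, sit high in both panels, and Trib2 sits at 0.01 in both.

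Around the members, 101 other genes of the pathway in 8 lists were read from the same fit. Of these 100 were in the table and 93 were tested. In edgeR 0 passed after adjustment, and 5 higher (background 6.3% of all genes) and 4 lower (background 2.61%) had an unadjusted p under 0.05. The 5 were Gab2, Pik3ap1, Trib1, Prr5 and Ptpn11, and the 4 were Ppp2r5a, Pik3ip1, Sesn1 and Larp1. DESeq2 called 3 higher (Pik3ap1, Trib1 and Prr5; background 2.32%) and 1 lower (Ppp2r5a; background 0.845%). Both sets of counts are near what the background shares give for 93 genes, so the values that follow describe single genes and say nothing of the lists. The median log2 fold change of the 93 was -0.01, the same as over all genes tested.

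On the higher side stood 3 genes that act at receptors and an mTORC2 partner, besides Trib1. Pik3ap1, which encodes BCAP, an adaptor that brings PI3K to receptors in B cells and myeloid cells, had 24.8 and 9.52 CPM in activated A and B, against 4.13 and 1.89 CPM in resting A and B. The groups did not overlap, with a log2 fold change of 2.49 ± 0.64 (SE), an adjusted edgeR p of 0.363 and a DESeq2 adjusted p of 0.0041. Gab2, a docking protein that binds p85, had 1.96 and 1.43 CPM in activated Treg, against 0.292 and 0.261 CPM in resting Treg, a log2 fold change of 2.33 ± 0.55 (SE) that neither tool called. Ptpn11, the phosphatase SHP2, which binds Gab2, had 53.4 and 58.3 CPM in activated Treg, against 39.2 and 41.0 CPM in resting Treg, with no overlap and no call. Prr5, the mTORC2 partner, had 96 and 12 counts in activated A and B and 2 and 0 counts in resting A and B. Summed dendritic cell markers, given above, were higher in activated Treg, as these 4 genes were. Within activated Treg the marker sums were higher in library A, as were Pik3ap1, Gab2 and Prr5, while Ptpn11 was higher in library B. The part of dendritic cells in these differences was not tested.

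The 4 genes on the lower side act at separate steps. Pik3ip1, a membrane protein that inhibits PI3K, had 76.5 and 47.3 CPM in activated A and B, against 139 and 100 CPM in resting A and B. Its groups did not overlap, with a log2 fold change of -0.95 ± 0.31 (SE), an unadjusted edgeR p of 0.026 and an adjusted p of 0.455. Ppp2r5a, a regulatory subunit of the phosphatase PP2A, had 63.5 and 57.1 CPM in activated Treg, against 111 and 93.9 CPM in resting Treg, with a log2 fold change of -0.77 ± 0.18 (SE), an adjusted edgeR p of 0.350 and a DESeq2 adjusted p of 0.042. Sesn1, a sestrin, of a family that restrains the amino acid arm of mTORC1, had 227 and 175 CPM in activated Treg, against 319 and 286 CPM in resting Treg, a log2 fold change of -0.59 ± 0.20 (SE) that neither tool called. Its relative Sesn2 ran the other way, with 8.90 and 15.1 CPM in activated Treg, against 4.76 and 7.97 CPM in resting Treg, and no overlap. The log2 fold change of Sesn2 was 0.90 ± 0.43 (SE), also without a call, and Sesn3 overlapped between groups. Larp1, which binds mRNAs that mTORC1 controls, had 109 and 88.9 CPM in activated Treg, against 157 and 131 CPM in resting Treg, and was not called either.

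Other named genes of these lists ran in both directions without a call by either tool. In the lipid phosphatases Inpp5b, the most expressed per length, had a log2 fold change of 0.33 ± 0.17, and Synj2 and Inppl1 were also on the higher side. Among PP2A subunits Ppp2r5c and Ppp2r1b were on the lower side. In the amino acid arm of mTORC1, Rragd, a Rag GTPase, stood at 0.74 ± 0.32 and Lamtor5 at 0.06 ± 0.24. The AMPK subunits Prkag1 and Prkaa1 stood at -0.39 ± 0.16 and -0.37 ± 0.26, and Rhebl1, a Rheb relative, was also lower. Rps6, the ribosomal protein that S6 kinases phosphorylate, had 725 and 825 CPM in activated Treg, against 1003 and 915 CPM in resting Treg; it has close relatives in the genome, which makes its count uncertain. Of the 12 mTORC1 output genes tested, 3 lay above 0 and 9 below, with a median of -0.05.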

How the data were processed

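RNA sequencing counts of 4 mouse spleen Treg libraries, 2 activated and 2 resting, were used. Per the labels' protocols total RNA was amplified from low input with SMART-seq v4, so counts are reads and not molecules, and no interval covers more than the spread between these libraries. Tools named by the submitters' processing notes are featureCounts, DESeq2 and STAR 2.4.0c, with the build mm10. Neither the annotation release nor the strand setting is given in the sources used here.

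The authors deposited raw counts for 38924 Ensembl identifiers and a table of regularized log2 values, in which low counts are shrunk. Headings of the count table give each column's group but repeat a replicate number, so its columns were assigned to groups only. The log2 table carries numbers 1 and 2. Names and union exon lengths came from GENCODE M21 (mm10), where 37607 identifiers matched, and promoters from RefSeq. Samtor, of the other pathway genes, was not found.

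Genes were kept with edgeR's filterByExpr (minimum count 10, minimum total 15), scaled by TMM and tested on group with edgeR 4.0.16 (quasi-likelihood F-test, prior count 2, R 4.3.3), with Benjamini-Hochberg adjustment over 14235 genes. CPM use TMM-scaled totals; 1 CPM is 20.3 to 30.6 counts. The biological coefficient of variation was 0.352. The SE was derived by dividing the log2 fold change by the root of F, and is approximate, as are the 95% intervals made from it. The smallest p that an exact two-sided permutation of 4 libraries allows is 0.333. DESeq2 1.42.0, limma 3.58.1, other scaling and filters, and leaving out each library were alternatives. Steps were tested on simulated data.

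Values in every library were given for members with an unadjusted edgeR p under 0.05 or a DESeq2 call, the most expressed member per length of each role, members with the widest gap within a group, and, beyond this rule and after their values were seen, members whose groups did not overlap and role partners of these. From each other list up to 3 genes with the smallest p and the most expressed one were picked, of which Pik3c3, Rps6ka3, Rps6ka4, Prr5l and Pdcd4 are not described. Beyond this rule, Ptpn11 was named for its unadjusted edgeR p under 0.05 and Sesn3 as a relative of Sesn1 and Sesn2. The members and lists were chosen with earlier results of these data known.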

Additional observations from a re-analysis of the deposited data

How the results depend on the processing

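The count of members called higher was 0 in every setting. The count called lower was 0 in the reported fit, with relative log expression factors, limma-voom and limma on the regularized log values, 1 with DESeq2 (Trib2) and 3 without the low count filter (Pik3r5, Sgk3 and Trib2). Over all genes, 675 were called higher and 177 lower without the filter, and 324 (2.32% of 13959) and 118 (0.845%) with DESeq2. The number of genes tested without the filter is not given here, so its 3 members have no background share beside them. Leaving out 1 library gave 0 to 334 genes higher and 0 to 36 lower (leaving out activated A gave 0 and 0, activated B 59 and 3, resting A 334 and 36, resting B 176 and 22), and 0 members in either direction; the cause was not tested. The labels describe independent animals, and whether same-numbered libraries of the regularized log table shared a preparation is not known here. Across the genes tested, the deviations of resting 1 and activated 1 from their group means correlated at 0.652. With 2 libraries per group, the deviations of number 2 are the same with the sign reversed and add nothing. With the replicate block, limma called 1027 genes higher and 525 lower of the 14235 tested. Of the 32 members it called 0 higher and 5 lower (Pik3cd, Pik3r1, Pik3r5, Sgk3 and Trib2). Trib2 ranged from -1.10 to -1.07 without 1 library. Of 32 members 13 kept their sign in all 10 settings (Pik3cd, Pik3r1, Pik3r2, Pik3r5, Inpp5d, Phlpp1, Sgk1, Sgk3, Rptor, Rheb, Rps6kb2, Gsk3b and Trib2). Among these, leaving out activated A or activated B moved Sgk3 to -2.63 or -0.89, Pik3r5 to -1.44 or -0.50, Pik3r1 to -0.98 or -0.19 and Gsk3b to -0.43 or -0.14, while without resting A Pik3r2 came to 0.027, Inpp5d to 0.0092 and Phlpp1 to 0.039. The other 19 turned without 1 library, with log2 ranges of -0.30 to 0.18 for Pik3ca, -0.10 to 0.84 for Pik3cb, -0.10 to 0.13 for Pik3cg, -1.04 to 0.18 for Inpp4b, -0.28 to 0.015 for Pdpk1, -0.069 to 0.36 for Akt1, -0.32 to 0.40 for Akt2, -0.087 to 0.15 for Mtor, -0.88 to 0.12 for Rictor, -0.15 to 0.15 for Mlst8, -0.29 to 0.057 for Mapkap1, -1.17 to 0.063 for Deptor, -0.33 to 0.41 for Akt1s1, -0.15 to 0.51 for Tsc1, -0.15 to 0.19 for Tsc2, -0.53 to 0.30 for Rps6kb1, -0.18 to 0.24 for Rps6ka1, -0.24 to 0.17 for Gsk3a and -0.69 to 0.050 for Ddit4. Without the filter Pik3cg (-0.011), Mlst8 (-0.032), Akt1s1 (-0.031), Tsc2 (-0.014) and Rps6ka1 (-0.013) also turned, and Mlst8 turned with limma-voom (-0.021) and on the regularized log values with and without the block (-0.0067). Of 44 shares, 17 moved by more than 1 SD with the longest transcript as length and 35 with no length scaling.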
